A study of Mus musculus with 59 samples.

Results

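The cytosolic ribosomal protein genes were read in poly(A) RNA-seq libraries of mouse cortex and hippocampus. They were chosen by symbol: names of the Rpl and Rps series with a number, with Rplp0, Rplp1, Rplp2, Rpsa and Fau added, and with symbols of annotated pseudogenes ending in -ps and the Rps6k kinases left out. The rule gave 90 of the 57180 genes in the count table, of which 84 are annotated as protein-coding and 6 as processed pseudogenes (Rpl32l, Rpl6l, Rps12l1, Rps3a2, Rps3a3 and Rps4l). Rpl10l and Rps12l1 had 0 counts in every library and Rpl39l had a mean of 0.0438 CPM (a gene's count as a share of the scaled library total), so that 87 genes passed the filter on low counts: 32 of the small subunit, 46 of the large subunit and 9 paralogs or pseudogenes.

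The 59 libraries came from 30 male mice, 29 of which gave both tissues. The labels name wild type (Mrpl40 +/+,Slc25a1 +/+), Slc25a1 het (Mrpl40 +/+,Slc25a1 -/+), Mrpl40 het (Mrpl40 -/+,Slc25a1 +/+) and double het (Mrpl40 -/+,Slc25a1 -/+), with 9, 7, 7 and 7 libraries in cortex and 8, 7, 7 and 7 in hippocampus. Slc25a1 moves citrate out of mitochondria, and Mrpl40 belongs to the mitochondrial ribosome, a different particle from the cytosolic one described here. Neither the age of the mice nor the kind of allele is given in the labels.

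A cytosolic ribosome has a small subunit, which reads the mRNA, and a large subunit, which joins amino acids and carries the flexible P stalk that recruits translation factors. Its proteins are made in matched amounts from scattered genes, and their mRNAs start with a terminal oligopyrimidine (TOP) tract, a run of C and T bases through which the kinase mTOR and the RNA-binding protein Larp1 set how much of the mRNA is translated. An mRNA level therefore does not give the amount of ribosome. Mammalian genomes also hold many intronless copies of these genes, and neurons carry ribosomes far into dendrites and axons.

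Library totals ranged from 21443017 to 32120906 counts. The labels were checked on the targeted genes: in cortex, Slc25a1 had a lowest, median and highest level of 12.1, 24.0 and 26.3 CPM in wild type, against 11.1, 12.6 and 24.3 CPM for Slc25a1 het and 10.8, 11.6 and 21.9 CPM for double het, and in 6 animals (6 and 7 of wild type, 12 and 13 of Slc25a1 het, 29 and 30 of double het) the level went against the label. Mrpl40 had medians of 17.2 CPM in wild-type cortex, 17.5 in Mrpl40 het and 17.6 in double het, so that the labels with Mrpl40 -/+ were not matched by a lower Mrpl40 count. Genotypes are therefore given as labelled throughout, and each direction refers to the label. Of the hippocampal marker genes 9 of 10 tested were higher in hippocampus (Prox1 a median of 12.5 CPM in cortex, 242 CPM in hippocampus), and 8 of 9 neocortical markers were lower there. Hippocampus library Slc25a1 het 3 had 761 CPM of cerebellar and thalamic markers against 108 to 200 CPM in the others, and libraries Mrpl40 het 5 and double het 6 had 78.8 and 98.3 CPM of choroid plexus markers against 20.5 to 52.3 CPM.

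Levels were compared between genes per length, as mean CPM per kilobase of the median annotated transcript. Rpl4, a large-subunit protein that lines the exit tunnel of the nascent chain, was the highest at 563 CPM per kilobase, followed by the stalk protein Rplp1 at 507, Rps15 of the small subunit at 353, Rps14 at 290 and Rps3 at 255. The lowest genes with counts were Rpl39l at 0.0646, Rpl3l at 0.438, Rpl24 at 1.60, Rpl32l at 3.41 and Rps29 at 3.58 CPM per kilobase. Rpl3l, the paralog of Rpl3 known from muscle, and Rpl39l, known from the germ line, are outside the set that most tissues use. Rpl24 and Rps29 are single parts of every ribosome, and their low values stood beside high counts on their intronless copies.

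Those copies took a large share of the counts. A copy was a gene outside the rule with at least 50% of its 31-base words in a member's transcripts. By that measure 307 copies belonged to 72 members, 293 of them had counts, and their summed mean level was 4984 CPM against 5853 CPM on the members, or 85.2% of it. In 37 members the copies together had more counts than the member. The coding sequences of 2 such pairs are shown because a read within them can have more than 1 place. Each line gives the first 60 coding bases 5′ to 3′, from GENCODE vM21 transcripts, and capitals mark the base that differs between member and copy.

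Rps27: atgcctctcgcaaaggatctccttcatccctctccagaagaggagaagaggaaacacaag
Rps27rt: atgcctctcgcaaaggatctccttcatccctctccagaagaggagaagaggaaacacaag
Rpl3: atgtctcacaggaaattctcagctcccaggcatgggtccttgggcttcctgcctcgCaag
Rpl3-ps1: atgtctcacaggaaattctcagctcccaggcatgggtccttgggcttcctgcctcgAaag

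Rps27 and Rps27rt matched at all 252 coding bases, with 2.15 CPM on Rps27 against 81.1 CPM on Rps27rt. Rpl3 and Rpl3-ps1 differed at 2 of 1209 coding bases, with 167 CPM on Rpl3 and 284.6 CPM on Rpl3-ps1. The same order was seen for Rps29 (1.52 CPM, Gm14303 85.1 CPM), Rps6 (37.2 CPM, Rps6-ps4 173 CPM) and Rpl13 (18.1 CPM, Gm12918 152 CPM). For these genes the split between member and copy is uncertain, and the labels do not say how reads with several places were counted. Rps15, Rpl4, Rpl22 and Rps27l had no copy by this measure. Of the protein-coding members, the 16 with under 50% of their 100-base words unique to them had a median level of 41.1 CPM per kilobase, and the other 68 had 78.0.

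**Figure D1:**
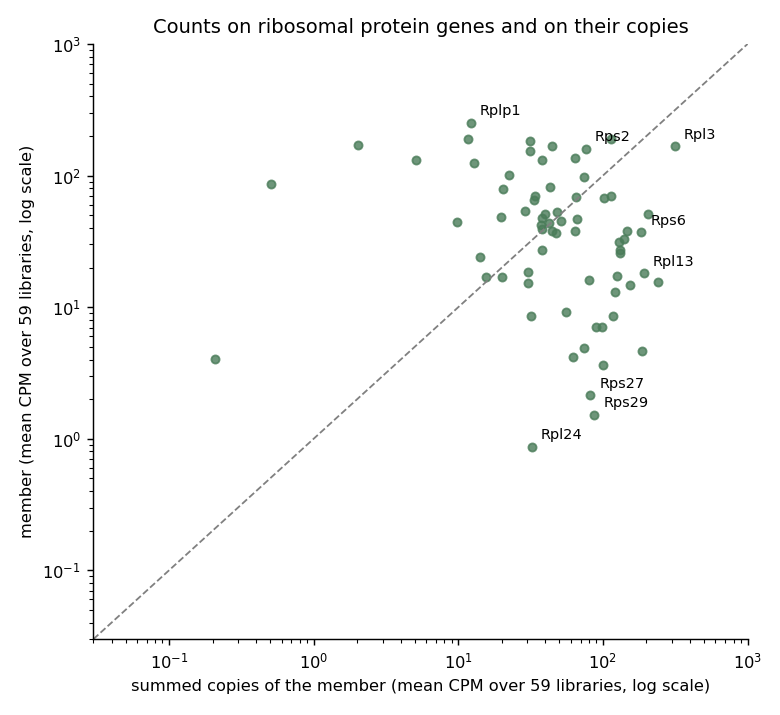
Mean CPM over 59 libraries of each ribosomal protein gene with a copy that has counts (y axis, log scale) against the summed mean CPM of its copies (x axis, log scale), 1 point a gene; the dashed line marks equal levels. Rps29, Rps27 and Rpl24 lie far to the right of the line, and Rplp1 lies above it.

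Start sites were taken from RefSeq promoters (GRCm38.p6), where 65 of the 90 genes matched with 77 start windows. The 30 bases from 20 before to 10 after the start are shown for the genes that the comparisons below turn on, 5′ to 3′ on the gene's strand (plus for all of them), with the longest run of C and T in capitals. Rpl22 and Rps27l have 2 starts each, and the start with the longest run was chosen, so that other starts of these genes are not shown. The Rpl22 and Rps15 windows lie before the first bases of these genes in GENCODE vM21 (chr4:152325742 and chr10:80292453). The Rps2, Rpl28 and Fau windows lie past the first bases of theirs (chr17:24718116, chr7:4792874 and chr19:6057844).

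Rps2: tgcgtaggcagtcgagatctcgcgCTTCTT
Rps15: gCCCTCCCggcagagctcgcgataactgcg
Rpl22: atcagcgctgCTTCTggaatgttccagctc
Rplp0: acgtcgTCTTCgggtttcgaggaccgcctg
Rps27l: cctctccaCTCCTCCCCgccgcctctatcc
Rpl28: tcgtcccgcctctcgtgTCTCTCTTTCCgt
Fau: ggacgtgcgcgcccccaCTTCTTCCTCTTT

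These windows lie at chr17:24720043-24720072 (Rps2), chr10:80292411-80292440 (Rps15), chr4:152324416-152324445 (Rpl22), chr5:115559447-115559476 (Rplp0), chr9:66946066-66946095 (Rps27l), chr7:4792945-4792974 (Rpl28) and chr19:6057927-6057956 (Fau). The runs were 13 bases in Fau, 11 in Rpl28, 9 in Rps27l, 7 in Rps15, 6 in Rps2 and 5 in Rpl22 and Rplp0. A run of at least 8 stood in 31 of 77 windows (40.3%) of ribosomal protein genes and in 12.5% of 32774 other windows, with median longest runs of 6 and 4. Motifs were searched on both strands of the 300 bases from 250 before to 50 after the start. CCGGAAG stood in 35.1% of ribosomal protein windows and 8.80% of others. TCGCGAGA stood in 15.6% and 0.961%. TTTCCG, which shares CGGAA on the other strand with CCGGAAG, stood in 37.7% and 8.82%. GGGCGG stood in 59.7% and 35.6%. A match of letters is a description and not a shown binding site.

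Hippocampus was compared with cortex within animals, as the mean over genotypes. The test was edgeR's quasi-likelihood test at a false discovery rate of 0.05 over all 21351 genes. By it, 55 of the 87 ribosomal protein genes were higher in hippocampus and 6 were lower. The split turned to 23 higher and 34 lower when the summed count of the ribosomal protein genes themselves was used as library size. That library size makes their sum equal in every library, so that a shift they share is removed in advance. Values on it show only how a gene stands against the others. The 61 calls are 70.1% of the genes, against 77.5% called among all genes tested, and the 55 rises are 63.2% against 39.8% (37.7% of all genes fell). Their median log2 difference was 0.126, against 0.0123 for all genes, and became -0.0226 with the summed count as library size, which also moved the median of all genes to -0.136. With library sizes from all genes (TMM), of the small-subunit genes 21 of 32 rose and 1 fell, of the large-subunit genes 27 of 46 rose and 5 fell, and of the paralogs and pseudogenes 7 of 9 rose. In wild type alone 43 rose and 4 fell (54.0% called, against 60.6% of all genes, of which 30.4% rose and 30.1% fell), and with the summed count as library size 20 rose and 22 fell.

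The sizes were small, and most tissue ranges overlapped. Libraries of the tissues did not overlap in 4 genes, all higher in hippocampus (Rpl22, Rpl3, Rps9 and Rps15a, named for this), against 15% of all genes tested and 7.11% for hippocampus higher. Over the 83 genes with at least 1 CPM in every library, the mean log2 CPM was higher in hippocampus in 28 of 29 animals, by 0.127 ± 0.0754 (SD), with a range from -0.0231 to 0.295.

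Rpl22, a large-subunit protein that also binds other RNAs and is not needed for ribosome assembly, had the largest rise. Its lowest, median and highest levels were 81.3, 86.5 and 102 CPM over the cortical libraries, and 106, 123 and 131 CPM over the hippocampal ones. All 29 animals were higher in hippocampus and no hippocampal library reached down to a cortical one. The log2 difference was 0.48 ± 0.017 (SE; adjusted p 9.8e-24 by edgeR) and stayed positive, at 0.33, with the summed count as library size. Its paralog Rpl22l1, which Rpl22 represses in other cells, was also higher, from a median of 24.0 to 27.0 CPM (0.13 ± 0.029), but turned to -0.023 with that library size.

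All 3 genes of the P stalk rose, to unequal degrees, and Rplp2 turned its sign with the summed count as library size. Rplp0, its base, had cortical levels of 103, 113 and 126 CPM (lowest, median and highest) against 125, 149 and 161 CPM, and the highest cortical library lay just above the lowest hippocampal one. Its log2 difference was 0.38 ± 0.018, with all 29 animals higher. Rplp1 rose from a median of 228 to 279 CPM (0.27 ± 0.024; 28 of 29 animals). Rplp2, which pairs with Rplp1 on the stalk, went from 54.6 to 58.2 CPM (0.075 ± 0.022; 23 of 29 animals) and to -0.073 with the summed count as library size, where Rplp0 and Rplp1 stayed positive at 0.23 and 0.12.

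In the small subunit the largest rise was that of Rps2, which lies at the entry of the mRNA channel. Its cortical levels were 118, 138 and 177 CPM, against 144, 182 and 213 CPM in hippocampus, with overlapping ranges and 28 of 29 animals higher (0.37 ± 0.029). Rps23, a decoding-centre protein with a low count, went from 3.62 to 4.39 CPM (0.31 ± 0.061; 25 of 29). Rps9 went from 115 to 136 CPM and Rps15a from 90.4 to 112 CPM, in each case higher in all 29 animals.

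Of the paralogs, Rps27l, a p53 target that can stand in for Rps27, had cortical levels of 4.57, 6.13 and 7.06 CPM, against 6.35, 7.82 and 9.39 CPM in hippocampus. It was higher in all 29 animals by 0.37 ± 0.033, while Rps27 itself did not pass the test (-0.0100). Rps27 had only 36 to 82 counts a library, beside 81.1 CPM on its copy Rps27rt, so that its own level is uncertain. Rps4l, annotated as a processed pseudogene, rose by 0.34 ± 0.039 in the fit (27 of 29 animals) and its parent Rps4x by 0.21 ± 0.017. Rpl7l1 rose by 0.14 ± 0.018, turning to -0.0090 with the summed count as library size, and Rpl7 by 0.28 ± 0.016. Rpl3, next to the peptidyl transferase centre, rose from 150 to 185 CPM (0.31 ± 0.016; 29 of 29), and Rpl3l at 0.452 CPM did not pass the test (-0.044 ± 0.13). Rpl24 rose by 0.30 ± 0.096 (22 of 29), but had -0.040 when its counts were summed with those of its copies.

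The 6 genes that fell did so by little. Rpl28, a large-subunit protein, had a cortical median of 9.12 CPM against 7.93 CPM in hippocampus, with overlapping ranges, and was lower in 22 of 29 animals (-0.14 ± 0.037). With its 4 copies, which hold 118 CPM, summed in, the sign turned to 0.083 (adjusted p 0.00036 by edgeR). Rpl26, which is also known to bind the p53 mRNA, fell from 101 to 94.6 CPM (-0.074 ± 0.019; 23 of 29) and kept its sign in that sum and with an offset for length and GC content. Rpl41 had -0.067 ± 0.028 and Rpl19 -0.061 ± 0.027. Rpl29 (-0.061 ± 0.025) and Fau (-0.061 ± 0.021) turned to 0.025 and 0.030 with the offset. Fau is made as a fusion with a ubiquitin-like protein. Rps27a, a fusion with ubiquitin, was higher in hippocampus (0.27 ± 0.065), and stood at 0.12 with the summed count as library size, short of the threshold.

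**Figure D2:**
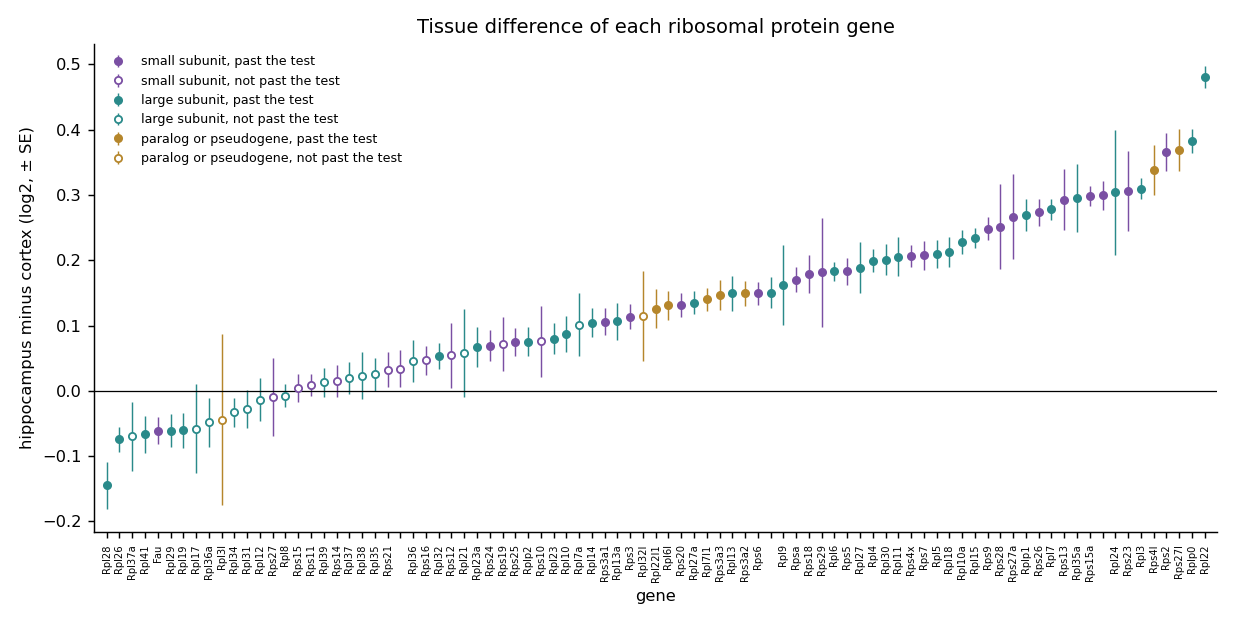
Log2 difference of hippocampus minus cortex (y axis, points with ± SE) for each of the 87 ribosomal protein genes tested (x axis, ordered by value, a few without a name), coloured by subunit and filled where past the test. The 55 filled points above 0 lead up to Rpl22 at 0.48 and the 6 below 0 end at Rpl28. The split becomes 23 above and 34 below when the summed ribosomal protein count, which removes a shared shift, is the library size.

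With library sizes from all genes, the members were also read by how unique their sequence is, beside 39.8% of all genes that rose and 37.7% that fell. Of the 21 protein-coding genes tested with at least 90% of their 100-base words unique, 12 rose and 1 fell. Their median was 0.069, against 0.126 for all 87 genes. Of the 16 protein-coding genes with under 50%, 10 rose and 1 fell (0.13). The part of shared sequence was not tested. Among the copies themselves 111 of 224 tested rose and 12 fell. Markers of other cell types moved with the tissues as well: 9 of 12 neuronal markers fell (Snap25 from 3619 to 2063 CPM) and 1 rose, 8 of 12 microglial, 7 of 12 astrocytic, 6 of 12 oligodendrocytic, 8 of 10 fibroblast and all 7 choroid plexus markers tested rose, and 3 astrocytic ones fell. In whole tissue a different number of cells of a type and a different amount of RNA per cell cannot be told apart, and the part of cell composition in these differences was not tested.

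Other genes of the translation machinery were read from lists of known function, beside the 39.8% of all genes that were higher and the 37.7% that were lower. Of ribosome biogenesis factors 50 of 80 were higher and 15 lower in hippocampus, among them the nucleolar chaperone Npm1 (131 to 169 CPM, 0.37 ± 0.017), the rRNA methyltransferase Emg1 (0.55 ± 0.022), Rcl1 (0.70 ± 0.033) and Bop1 (0.49 ± 0.024). Of other genes with TOP mRNAs 18 of 25 were higher and 2 lower: the elongation factor Eef1a1 went from 1545 to 2353 CPM (0.62 ± 0.022), the poly(A)-binding protein Pabpc1 had 0.49 ± 0.021, the chaperonin subunit Cct5 0.58 ± 0.022, and the histone chaperone Nap1l1 went the other way (-0.76 ± 0.016). Of 9 elongation factor genes 3 rose and 2 fell. One of those that fell was Eef1a2, the form that replaces Eef1a1 in mature neurons (1058 to 751 CPM, -0.47 ± 0.019). Initiation factors, polymerase I genes and genes that control TOP mRNAs had shares of higher genes near that of all genes. Initiation factors split into 14 higher and 7 lower of 33 (Eif4b 0.41 ± 0.018, Eif3e 0.39 ± 0.017, Eif4g3 -0.39 ± 0.015) and RNA polymerase I genes with their regulators into 6 higher and 3 lower of 13 (Myc 0.72 ± 0.048, Polr1a 0.26 ± 0.023, Polr1b -0.45 ± 0.027). Genes that control TOP mRNAs had 12 higher and 14 lower of 29 (the mTOR inhibitor Ddit4 1.25 ± 0.026, Larp1b -1.02 ± 0.031, Tsc1 -0.42 ± 0.016), and the ribosome stress list 6 and 6 of 14 (Trp53 0.42 ± 0.023, Cdkn1a -2.31 ± 0.078, Abce1 0.35 ± 0.017, Tcf25 -0.48 ± 0.019).

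**Figure D3:**
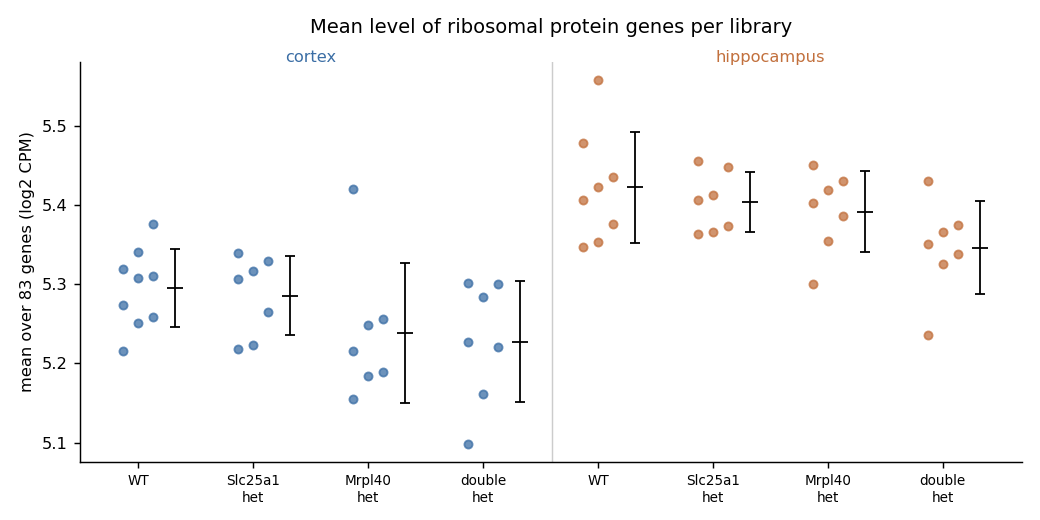
Mean log2 CPM over 83 ribosomal protein genes in each library (points) by tissue and labelled genotype, with the group mean and SD as bars. Hippocampus groups lie at means of 5.35 to 5.42 and cortex groups at 5.23 to 5.30, and cortex library Mrpl40 het 2 stands at 5.42. The order is set by CPM. It turns for the median gene when the summed ribosomal protein count, which removes a shared shift, is the library size.

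Each labelled genotype was then compared with wild type within a tissue. These comparisons ask how heterozygosity for either mitochondrial gene, or for both, moves the cytosolic ribosomal protein genes, and within a tissue they share the wild-type libraries. The mean log2 CPM over 83 genes in cortex was 5.30 ± 0.050 (SD, n = 9) in wild type, 5.29 ± 0.050 for Slc25a1 het, 5.24 ± 0.088 for Mrpl40 het and 5.23 ± 0.077 for double het (n = 7 each). In hippocampus it was 5.42 ± 0.070 (n = 8), 5.40 ± 0.038, 5.39 ± 0.051 and 5.35 ± 0.059 (n = 7 each), and in both tissues the ranges of wild type and double het overlapped.

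In cortex labelled double het 2 of 87 ribosomal protein genes changed, Rps15 and Rps2, both lower, and 0.0686% of the 20394 genes tested were called (0.049% lower). The log2 differences of 76 of the 87 lay below 0 (51.4% of all genes did), with a median of -0.071 against -0.0034 for all genes, and 26 had an unadjusted p under 0.05 (10.9% of all genes). With the summed ribosomal protein count as library size the median was -0.00063, 44 lay below 0 and 0 were called. The median of all genes then stood at 0.068. That library size removes a shared shift in advance, so that a median near 0 on it says nothing of such a shift. Below 0 lay 28 of 32 small-subunit genes, 43 of 46 large-subunit genes and 5 of 9 paralogs and pseudogenes.

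Rps15, a protein of the head of the small subunit whose tail reaches toward the decoding site, had cortical levels (lowest, median and highest) of 189, 204 and 213 CPM in wild type, 174, 191 and 209 CPM for Slc25a1 het, 164, 189 and 201 CPM for Mrpl40 het and 164, 180 and 185 CPM for double het. All 7 double het libraries lay below all 9 wild-type libraries, and both single het groups overlapped with both. Rps15 was looked at because it was called in these same libraries, so that the gap adds no support to the call. The share of all genes with such a gap was not counted. The means were 202 ± 7.48 CPM (SD, n = 9) in wild type and 179 ± 7.65 CPM (n = 7) in double het, and the log2 difference was -0.18 ± 0.037 (SE; adjusted p 0.0318 by edgeR). Each library held 3990 to 6562 counts of Rps15, so that counting error is small beside these differences. In hippocampus the medians were 191 CPM in wild type and 186 CPM in double het, with overlapping ranges (-0.038 ± 0.049).

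Rps2 had cortical levels of 140, 149 and 177 CPM in wild type, 129, 136 and 151 CPM for Slc25a1 het, 125, 133 and 151 CPM for Mrpl40 het and 118, 130 and 147 CPM for double het. One double het library, at 147 CPM, lay within the wild-type range, and the wild-type library at 177 CPM stood above the rest. Means were 152 ± 11.0 CPM (SD, n = 9) in wild type and 131 ± 8.62 CPM (n = 7) in double het, and the log2 difference was -0.22 ± 0.047 (SE; adjusted p 0.0401 by edgeR). In hippocampus the medians were 192 CPM in wild type and 185 CPM in double het (-0.027 ± 0.064). Rps2 shares sequence with 17 copies, of which 16 held 76.3 CPM in all against 160 CPM on Rps2. With the copies summed in, its difference was -0.16 (adjusted p 0.0992), and 1 gene, Rps15, stayed called.

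**Figure D4:**
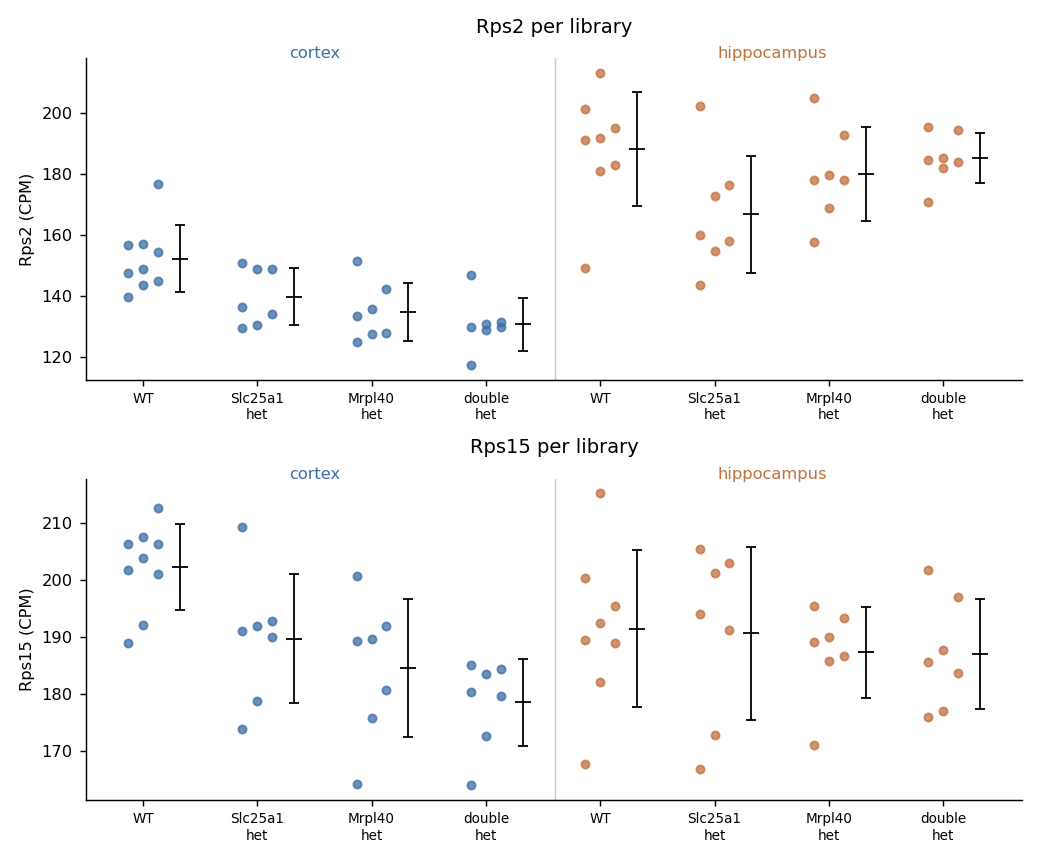
CPM of Rps2 (top) and Rps15 (bottom) in each library (points) by tissue and labelled genotype, with the group mean and SD as bars and axes that do not start at 0. In cortex the Rps15 libraries of double het (164 to 185 CPM) lie below those of wild type (189 to 213 CPM), which are the libraries it was called in. The Rps2 ranges overlap.

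The next smallest p-values in this comparison were those of Rpl18 (-0.19 ± 0.042, adjusted p 0.0599 by edgeR), Rpl30 (-0.21 ± 0.047, 0.0599) and Rps16 (-0.17 ± 0.041, 0.0787), which did not pass. The DESeq2 Wald test called 7 of the 87 genes, among them Rpl30, Rpl18, Rps16 and Fau. It called 105 of all 20394 genes tested, where edgeR called 14. The calls rested on few libraries: with each of the 16 cortex libraries of these groups left out in turn, 0 to 4 genes were called, 0 in 9 of the 16 fits, with Rps2 called in 5 and Rps15 in 5, while the median stayed between -0.0858 and -0.0548 and 64 to 78 genes lay below 0. Without the 6 animals named above for their Slc25a1 level, 0 of the 87 genes were called, and 2 of all 20350 genes tested. Rps15 then had -0.18 (adjusted p 0.309) and Rps2 -0.23 (adjusted p 0.267), both by edgeR on fewer libraries. Of the 87 genes 65 lay below 0, with a median of -0.046.

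The stalk genes in cortex labelled double het had -0.10 ± 0.035 (Rplp0), -0.12 ± 0.046 (Rplp1) and -0.038 ± 0.037 (Rplp2), none past the test. The fusions had -0.15 ± 0.040 (Fau) and -0.021 ± 0.13 (Rps27a). Of the paralogs Rpl22l1 stood at 0.12 ± 0.059 and Rpl7l1 at 0.028 ± 0.043, with Rpl22 at -0.020 ± 0.034 and Rpl7 at -0.017 ± 0.035. The lowest value of all was that of the pseudogene Rpl32l, named here for it (-0.53 ± 0.14, adjusted p 0.115 by edgeR). Rpl4, the gene with the highest level, had -0.034 ± 0.033.

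Of the copies of ribosomal protein genes 2 of 222 fell, none rose, and 178 lay below 0 (median -0.097). Among the 21 protein-coding genes with at least 90% unique sequence 18 lay below 0, with a median of -0.059. Of the other translation lists none had a gene past the test in this comparison: 42 of 80 biogenesis genes (median -0.0067), 18 of 25 other TOP genes (-0.025) and 11 of 33 initiation factor genes (0.028) lay below 0. Markers of several cell types moved beside these values. Below 0 lay 12 of 12 astrocytic markers (median -0.082), 11 of 12 of endothelial cells and pericytes (-0.060), 3 of 12 neuronal (0.042), 2 of 10 fibroblast (0.16) and 0 of 12 oligodendrocytic ones (0.18). Of the microglial markers 11 of 12 lay below 0 (-0.12) and C1qa, a complement subunit, was called (-0.31 ± 0.060, adjusted p 0.0262 by edgeR). The summed microglial level was 415 to 510 CPM in wild type (median 451) and 391 to 445 CPM in double het (median 420). The part of these cell types in the ribosomal protein values was not tested.

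**Figure D5:**
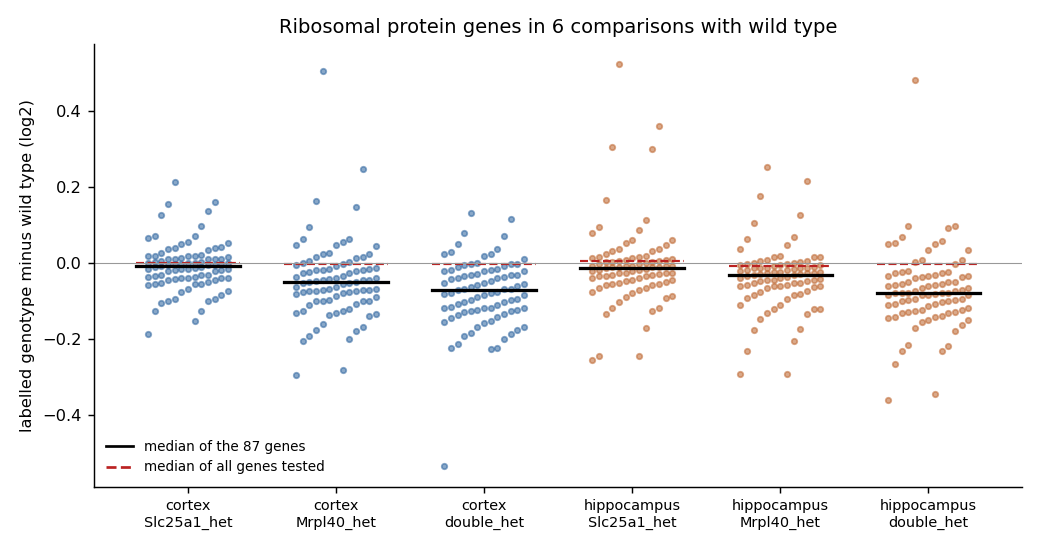
Log2 difference from wild type of the 87 ribosomal protein genes (points) in each of the 6 comparisons of labelled genotypes, with the median of the 87 (black line) and of all genes tested (red dashes). The medians lie at -0.0081, -0.051 and -0.071 in cortex and -0.013, -0.031 and -0.078 in hippocampus, in the order Slc25a1 het, Mrpl40 het and double het. With the summed ribosomal protein count as library size, those of cortex Mrpl40 het and of Slc25a1 het in both tissues turn above 0 (0.0059, 0.0052 and 0.0020). That library size removes a shared shift in advance.

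In hippocampus labelled double het 0 of 87 genes were called by edgeR and by DESeq2. Of all 20162 genes tested edgeR called 0.00992%, and DESeq2 called 8. By edgeR 21 of the 87 had an unadjusted p under 0.05 (5.28% of all genes). Below 0 lay 73 of 87 (51.4% of all genes), with a median of -0.078, which became -0.0095 with the summed count as library size. The paralog Rps27l was among the genes with the smallest p-values, at -0.27 ± 0.066 (adjusted p 0.556 by edgeR), with 7.44, 8.54 and 9.39 CPM in wild type and 6.35, 6.99 and 7.75 CPM in double het. The ranges overlapped, and the difference did not pass the test. Rpl27a (-0.18 ± 0.045), the paralog Rpl22l1 (-0.23 ± 0.062) and the pseudogene Rps3a3 (-0.15 ± 0.045) came next. The stalk genes had -0.021, -0.080 and -0.13 (Rplp0, Rplp1 and Rplp2). Of the 21 protein-coding genes with at least 90% unique sequence 20 lay below 0. Without the 3 hippocampus libraries that stood apart by their markers, 75 of 87 lay below 0, with a median of -0.096. Beside these values 0 of 7 choroid plexus markers (median 0.41), 1 of 12 oligodendrocytic (0.13), 2 of 12 neuronal (0.030), 9 of 12 astrocytic (-0.030), 7 of 12 endothelial and pericyte (-0.0093), 4 of 10 fibroblast (0.15) and 8 of 12 microglial ones (-0.033) lay below 0, and their part was not tested.

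In cortex labelled Mrpl40 het 0 of 87 genes were called by edgeR (0.0294% of all genes), 19 had an unadjusted p under 0.05 (6.94% of all genes), 67 lay below 0 (51% of all genes), and the median was -0.051, turning to 0.0059 with the summed count as library size. Rps16, which lies near the decoding site, had levels of 37.6, 40.1 and 43.1 CPM in wild type and 33.4, 34.6 and 38.5 CPM in Mrpl40 het, with 1 library, Mrpl40 het 2, inside the wild-type range. Its difference was -0.19 ± 0.040 (adjusted p 0.0699 by edgeR, and 0.00908 by DESeq2). DESeq2 called Rps16 alone of the 87 genes, and 23 of all 20394 genes tested. Library Mrpl40 het 2 also had the highest mean over the 83 genes of its group. Without it edgeR called 2 of the 87 genes, both lower, and 10 of all 20531 genes tested. Then 76 of 87 lay below 0 and the median was -0.086. The library was left out for its high level of these same genes, which moves the differences down in advance. The values without it therefore add no support. Markers moved here too: below 0 lay 12 of 12 astrocytic (median -0.074), 12 of 12 microglial (-0.091), 10 of 10 fibroblast (-0.33), 11 of 12 endothelial and pericyte (-0.11), 2 of 12 neuronal (0.064) and 0 of 12 oligodendrocytic ones (0.30), and their part was not tested. Rps2 (-0.18 ± 0.046), Rps15 (-0.13 ± 0.037) and Rpl41 (-0.20 ± 0.063) followed without passing.

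In the other comparisons edgeR and DESeq2 called no ribosomal protein gene. Hippocampus labelled Mrpl40 het had 69 of 87 below 0 (52.9% of all genes) and a median of -0.031 (-0.0039 with the summed count as library size). By edgeR 11 of the 87 had an unadjusted p under 0.05 (8.19% of all genes), led by Rpl36 (-0.20 ± 0.069). Of all 20162 genes tested edgeR called 0.00496%, and DESeq2 called 11. Without the 6 animals against their Slc25a1 label 44 lay below 0 with a median of -0.0035, and without the 3 libraries that stood apart 53 did with a median of -0.015. Of the markers 12 of 12 astrocytic (-0.10), 12 of 12 oligodendrocytic (-0.060), 10 of 12 endothelial and pericyte (-0.097), 10 of 12 microglial (-0.042), 7 of 10 fibroblast (-0.15), 3 of 12 neuronal (0.11) and 1 of 7 choroid plexus ones (0.61) lay below 0, and their part was not tested. For Slc25a1 het, 52 lay below 0 in cortex (50.3% of all genes; median -0.0081, turning to 0.0052 with the summed count as library size), with 6 at an unadjusted p under 0.05 (3.17% of all genes). In hippocampus 55 lay below 0 (48.1% of all genes; median -0.013, turning to 0.0020), with 7 at that level (7.77%), and 0% of all genes were called in either tissue. Without the 6 animals both medians turned above 0, to 0.00082 in cortex (41 below 0) and 0.015 in hippocampus (38 below 0). Of the markers in cortex labelled Slc25a1 het, 11 of 12 endothelial and pericyte (-0.031), 9 of 12 microglial (-0.030), 7 of 12 astrocytic (-0.012), 5 of 12 neuronal (0.0098), 3 of 10 fibroblast (0.045) and 0 of 12 oligodendrocytic ones (0.16) lay below 0. In hippocampus 9 of 12 neuronal (-0.14), 9 of 12 oligodendrocytic (-0.019), 3 of 12 endothelial and pericyte (0.077), 2 of 12 microglial (0.081), 1 of 12 astrocytic (0.080), 2 of 10 fibroblast (0.13), 1 of 7 choroid plexus (0.17) and 2 of 11 cerebellar and thalamic ones (0.20) did. Their part was not tested. The smallest p-values were those of Rps2 in cortex (-0.13 ± 0.046) and Rpl28 in hippocampus (-0.25 ± 0.078).

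The interaction, which takes both single log2 effects from that of double het, asks whether the alleles act together beyond their sum. It was called for 0 of 87 genes in cortex and in hippocampus by both tools. Over all genes edgeR called 0% in either tissue, and DESeq2 called 2 genes in cortex and 0 in hippocampus. By edgeR 3 and 2 of the 87 had an unadjusted p under 0.05 (5.35% and 3.39% of all genes). In cortex 48 lay below 0 (49.4% of all genes) with a median of -0.0080, and in hippocampus 56 (50.6%) with a median of -0.018, which turned to 0.012 with the summed count as library size. These medians rested on few libraries. In cortex the median turned to 0.023 without library Mrpl40 het 2 (29 below 0) and to 0.0064 without double het 5 (38 below 0), and it was -0.0019 without the 6 animals. In hippocampus it was -0.087 without the 6 animals (72 below 0) and -0.052 without the 3 libraries that stood apart (70 below 0). For Rps15 and Rps2 in cortex the interaction was 0.042 ± 0.054 and 0.077 ± 0.068.

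Whether a genotype effect differed between the tissues was tested within animals. For Slc25a1 het, Mrpl40 het and double het 0 of 87 genes were called by both tools. Over all genes edgeR called 0%, 0% and 0.0234%, and DESeq2 called 0, 0 and 15 of 21351. By edgeR 5, 7 and 16 of the 87 had an unadjusted p under 0.05 (5.99%, 5.83% and 5.03% of all genes). For double het the difference, hippocampus minus cortex, was 0.14 ± 0.059 for Rps15 (adjusted p 0.933 by edgeR) and 0.21 ± 0.081 for Rps2 (adjusted p 0.904 by edgeR). The calls in cortex alone are thus not shown to differ from hippocampus.

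Within groups the ribosomal protein genes varied together. After the group means were removed, the 83 genes had a median pairwise correlation over 59 libraries of 0.335, against 0.147 for 82 genes of mitochondrial ribosomal proteins, and a median correlation with their own mean of 0.633. These libraries share scaling, RNA quality and, in pairs, an animal, so that the values are a description. The spread of log2 CPM within groups was smallest for Rps15a (SD 0.0559), Rpl15 (0.0565), Rpl8 (0.0603), Rpl3 (0.0611) and Rps9 (0.0634), and largest for Rpl21 (0.271), Rps23 (0.268), Rpl17 (0.267), Rpl9 (0.262) and Rpl29 (0.255). Of 29 animals, 18 deviated from the group mean the same way in both tissues.

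Of 10305 other genes, those whose deviations followed the mean of the ribosomal protein genes most closely were mainly their copies, 8 of the first 10, led by Rpl3-ps1 (Pearson's r 0.843 over 59 libraries). The other genes among the first 10 were Rack1 (0.818), a scaffold protein of the small subunit, and Gas5 (0.812), a noncoding TOP transcript that hosts small nucleolar RNAs. Zfas1, another such host (0.737), and the elongation factors Eef1b2 (0.659) and Eef1a1 (0.655) came further down and were named after their values were seen.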

How the data were processed

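Poly(A) RNA was sequenced in stranded, paired-end libraries, per the labels' protocols. The authors deposited raw counts for each gene, not normalized, in a table whose columns are the libraries, and the submitters' processing notes name FastQC, HISAT2, featureCounts, DESeq2 and the build GRCm39 (mm39) without versions. Lengths, copies and coding sequences came from GENCODE vM21 (GRCm38), in which all 90 genes had a match, and start windows from RefSeq promoters (GRCm38.p6).

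Groups came from the labels. Counts were fitted over all genes with edgeR 4.0.16 (R 4.3.3): TMM, the filter on low counts, robust quasi-likelihood, all genotypes of a tissue together, and Benjamini-Hochberg adjustment over all genes at 0.05. Tissues were compared with the animal as a block. CPM used TMM-scaled totals, log2 CPM a prior count of 0.5, and copies k-mers of 31 bases. Levels per kilobase, copy levels and their sums used plain totals. Positions in GRCm38 are not those of the deposited counts' build.

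Named genes were those past the test or with the 5 smallest p per genotype comparison, the 8 largest rises and falls between tissues, the paralogs, their parents, the stalk and the ubiquitin fusions, the 5 highest and lowest levels and spreads, and up to 4 genes per translation list. The 10 genes most like the mean, among those searched, were named as well. The members, lists and rule were chosen with earlier results of these data known, and other names after their values were seen. A few genes that the rule would name are not reported here.

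The animal number pairs the tissues: deviations from the group mean over 5000 genes correlated with a median of 0.109 within animals (-0.0294 to 0.414) and -0.0094 between them. Alternatives were the Wald test of DESeq2 1.42.0, its size factors used in edgeR, no filter, the summed count of the genes described as library size, an offset for length and GC content, a block for the replicate number, no block for the animal, a fit of 2 genotypes only, and fits without 6 animals whose Slc25a1 level is against their label. Chosen after seeing the data were sums of each gene with its copies and fits without named libraries. Tested on simulated data with 200 changed genes of the 20394 in the cortical double het comparison, the pipeline found 43.3% of those moved 1.2-fold, 68.7% of those moved 1.5-fold and 93.9% of those moved 2-fold, and made 7 false calls. In the tissue comparison (21351 genes) these shares were 70.1%, 92.5% and 97.0%, beside 2 false calls. That simulation also changed 200 genes and held no difference between animals. In the data 77.5% of all genes were called between tissues, so that these shares do not carry over to them. Figures were drawn with matplotlib 3.10.9.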

Additional observations from a re-analysis of the deposited data

Results flagged for a closer look

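In 10 measures over 8 groups a library was singled out where its gap to the nearest other library of its group was large beside the group's range. This met 5 of 80 groups, and chance gives about 1 in 20. Cortex library Mrpl40 het 2 stood above its group in 2 of them: the mean over 83 ribosomal protein genes was 5.42 log2 CPM (nearest other 5.26) and Rps16 had 38.5 CPM (35.4). Hippocampus library wild type 6 stood above its group for Rpl30 at 54.9 CPM (47.6). Cortex library wild type 2 had the highest Rps2 at 177 CPM (157), and hippocampus library Mrpl40 het 5, which also had high choroid plexus markers, the lowest Rps15 of its group at 171 CPM (186).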

How the results depend on the processing

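For cortex labelled double het the count of 2 genes called became 7 by the DESeq2 Wald test, 1 with the length and GC content offset, with only the genotypes compared and with copies summed in, and 0 with the summed ribosomal protein count as library size, without the 6 animals against their Slc25a1 label and with the replicate number as a block. The count over all genes tested moved too. It went from 14 to 105 by DESeq2, 6 with the offset, 11 with only those genotypes and 9 with copies summed in. It was 8 with the summed count as library size, 2 without the 6 animals and 8 with the block. The summed count removes a shared shift in advance, so that its 0 ribosomal protein genes are no check of such a shift. Leaving out 1 library gave 0 to 4 ribosomal protein genes: 0 without wild type 2, 5, 6, 8 or 9 or double het 2, 5, 6 or 7, 1 without wild type 1, 3 or 4, 2 without wild type 7, 3 without double het 1 or 4 and 4 without double het 3. Without double het 5, 1 of all genes was called. With the replicate block Rps2 had an adjusted p of 0.0567 and Rps15 of 0.0978 by edgeR. The numbers pair nothing across genotypes in the labels: libraries of the same number correlated at a median of 0.0862 against -0.0051 for others, and 11 of 55 correlated best with their own number. With the block the median of the 87 genes turned to 0.0045 in cortex labelled Slc25a1 het, and became -0.040 in hippocampus labelled Slc25a1 het, -0.057 in hippocampus labelled Mrpl40 het, and -0.025 (cortex) and -0.0026 (hippocampus) for the interaction. In cortex labelled Mrpl40 het the count of 0 became 1 by DESeq2 and 2 without Mrpl40 het 2, and stayed at 0 without double het 5. Mrpl40 het 2 was left out for its high level of these same genes. Over all genes tested the count of 6 became 23, 10 and 6 in these fits. Between tissues, copies summed in turned Rpl24 to -0.0399 and Rpl28 to 0.0826, and the length and GC content offset turned Fau to 0.0301 and Rpl29 to 0.0253. Under the alternatives run, 130 counts of calls stayed within 1.5 times the count reported, and 22 moved further. Most of the 130 were counts of 0 that stayed at 0. Of values of single genes 538 kept their direction and side of the threshold, while 43 fell short of it and 9 came past it. The cause of these changes was not tested. Genes with low counts, such as Rps29 with 18 to 65 counts a library, limit what can be seen.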
